A study of Mus musculus with 4 samples.

Results

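The genes described here are 36 cell proliferation genes, chosen by name as the S-phase and mitotic genes that a dividing cell switches on, and measured in cold-exposed inguinal white adipose tissue (ingWAT) of mice with and without the organic cation transporter Oct3 in adipocytes. All 36 were found, by symbol alone, among the 19030 genes listed. Ctrl mice carried *Oct3* alleles flanked by loxP sites. In cKO mice these alleles were crossed with Adiponectin-Cre, whose promoter drives Cre in adipocytes, so the deletion was aimed at adipocytes and not at the other cells of the depot. The libraries came from C57BL/6 mice aged 3 months and kept at 4 °C, with 2 Ctrl and 2 cKO libraries. The labels do not say how many mice stand behind a library, so p-values here measure the spread between these libraries only.

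Cells entering S phase load the MCM helicase at replication origins, switch it on with CDC45, and copy DNA with polymerases held to the template by the PCNA ring, while nucleotide-making enzymes supply the building blocks. The later genes act in mitosis: cyclin B with CDK1 drives entry, kinases and kinesins build the spindle and move chromosomes, and the anaphase-promoting complex ends the phase by marking cyclins for destruction. E2F factors switch on the S-phase genes, and the MuvB complex with B-MYB and FOXM1 switches on the mitotic genes. Mature adipocytes do not divide, while the progenitors, vascular cells and immune cells of ingWAT, and of the lymph node that lies in this depot, can.

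Levels are given as FPKM, a level scaled to transcript length and to library depth, as deposited, and depth was estimated at 17300000 to 18300000 reads a library. *Slc22a3*, which encodes Oct3, stood at 17.0 and 17.7 FPKM in Ctrl and 9.07 and 9.50 FPKM in cKO, a fall of 0.83 on the log2 scale (limma adjusted p = 0.000439), with no overlap between the genotypes. The adipocyte genes *Adipoq* and *Plin1* were abundant in every library, at no less than 966 and 477 FPKM. A list of 12 skeletal muscle genes summed to 2507 and 1685 FPKM in Ctrl and 10.7 and 8.62 FPKM in cKO. All 10 of its tested genes fell, beside 13.8% of all genes tested. Of these, *Tnnc2*, *Tnnt3*, *Pvalb*, *Ckm*, *Atp2a1*, *Myh4* and *Actn3* averaged under 1 FPKM in cKO. They passed the filter described below only through their Ctrl libraries, so they could be tested only as lower genes.

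The proliferation genes leaned upward in cKO, and those that passed the test were replication genes. The rises were small and rested on low levels: the members' mean level over the 4 libraries had a median of 2.08 FPKM. Genes that averaged at least 1 FPKM over the libraries, 12658 in all, were tested with limma on log2(FPKM + 1), with p-values adjusted over all of them, and a fold change on this scale understates the change of a low gene. Of the 36 members, 28 passed the filter and 8 lay under it, the nearest on either side being *Ccnb1* with a mean of 1.04 FPKM and *Kif11* with 0.99 FPKM. *Pcna*, *Mcm5*, *Mcm2* and *Cdc45* rose, 4 of the 28 tested (14.3%), and 0 fell. Of all genes tested 12.0% were called higher in cKO and 13.8% lower, so the share of members that rose was near the background. With no adjustment, 11 of the 28 had p under 0.05 in the upward direction, where 18.3% of all genes tested did, and 0 in the downward direction. *Ccnb1*, 1 of the 11, averaged under 1 FPKM in Ctrl and passed the filter only through its cKO libraries, so it could be tested only as a higher gene. The count of 4 moved down or up with single libraries left out, in fits that called fewer of all genes higher. In these fits the members' median log2 fold change was 0.19 without Ctrl replicate 1 and 0.24 without Ctrl replicate 2. It was 0.26 without cKO replicate 1 and 0.16 without cKO replicate 2. After quantile normalization of the libraries 10 of the 28 were called higher, beside 13.5% of all genes tested.

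The direction was shared by more members than passed the test. The fitted log2 fold change was above 0 in 28 of 28 tested members, against 48.8% of all genes tested (25 or 26 of 28 when 1 library was left out); the 28 include *Ccnb1*, whose direction the filter fixed. The median log2 fold change was 0.22 against -0.006. Among the 6443 genes of similar level, with a mean of 1 to 10 FPKM, 44.3% had a positive value and the median was -0.03. Over all 36 members, tested or not, the cKO mean lay above the Ctrl mean in 35, the exception being *Cdc6*, while 47.4% of the genes listed had the higher mean in cKO. In 21 of the 36 both cKO libraries lay above both Ctrl libraries, in 0 both lay below, and in 15 the groups overlapped. Of the genes listed, many of them near 0 FPKM, 26.1% were separated in the upward direction. Of the 28 tested members 18 were, beside 31.9% of all genes tested. The members share their libraries and are no replicates of one another, so these counts describe the list. Summed over the 36 genes, the level was 133 and 140.4 FPKM in Ctrl and 161 and 172 FPKM in cKO, 21.5% higher in cKO, and without *Pcna*, the most abundant member, it was 89.5 and 95.6 FPKM in Ctrl and 108 and 116 FPKM in cKO, 20.5% higher. In bulk tissue a change in the number of dividing cells cannot be told apart from a change in RNA per cell.

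**Figure D1:**
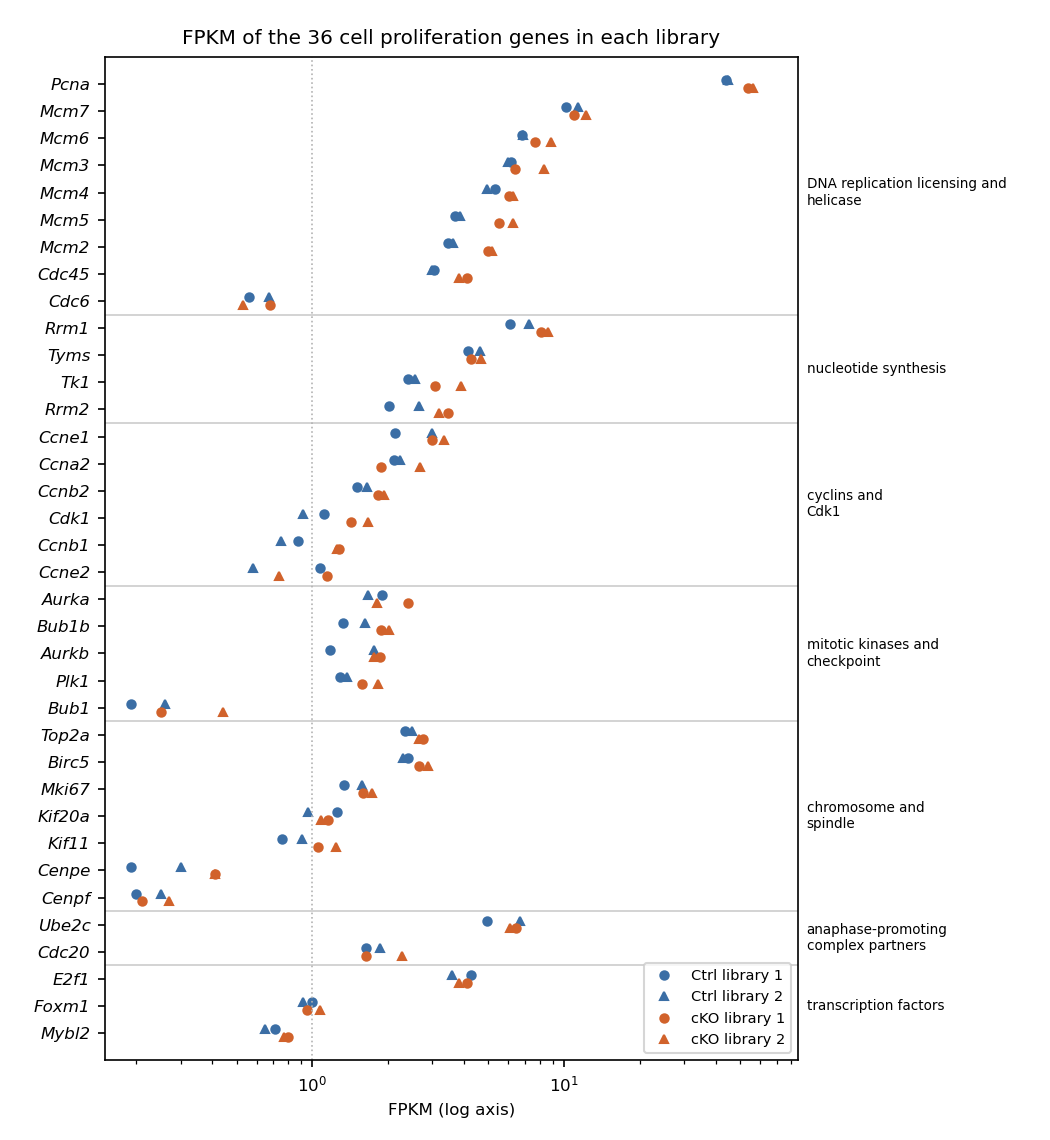
Level of each of the 36 proliferation genes in FPKM (log axis), one point per library (circle replicate 1, triangle replicate 2; Ctrl blue, cKO orange), grouped by role, with a dotted line at the filter of 1 FPKM. *Pcna* stands above all others at 43.9 to 56.1 FPKM, and both cKO points lie to the right of both Ctrl points for 21 of the 36 genes.

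The group of the replicative helicase, its loaders and the polymerase clamp held all 4 rises, among 8 tested genes (50%), beside 12.0% of all genes tested. *Pcna* (Entrez 18538, GRCm38, the assembly of mm10, chr2:132249286-132253180), the sliding clamp of DNA polymerase, stood at 43.9 and 44.9 FPKM in Ctrl and 53.6 and 56.1 FPKM in cKO, or 44.4 ± 0.672 in Ctrl and 54.9 ± 1.77 FPKM in cKO (SD, n = 2 libraries each), 23.6% higher. The cKO libraries lay above the Ctrl libraries by more than the groups' spread, with a log2 fold change of 0.30 (SE 0.0564, limma adjusted p = 0.00899).

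*Mcm5* (Entrez 17218, chr8:75109468-75128439), a subunit of the MCM2-7 ring that unwinds DNA, stood at 3.70 and 3.85 FPKM in Ctrl and 5.52 and 6.29 FPKM in cKO, or 3.78 ± 0.106 in Ctrl and 5.91 ± 0.544 FPKM in cKO (SD, n = 2 libraries each). It had the largest fold change of the tested members, 0.53 on the log2 scale (SE 0.0903, limma adjusted p = 0.00621), and its raw level was 56.4% higher in cKO. *Mcm2* (Entrez 17216, chr6:88883474-88898780), another subunit of the ring, stood at 3.46 and 3.63 FPKM in Ctrl and 4.99 and 5.18 FPKM in cKO, or 3.55 ± 0.12 in Ctrl and 5.09 ± 0.134 FPKM in cKO (SD, n = 2 libraries each). Its libraries kept close together within each genotype, and the log2 fold change was 0.42 (SE 0.0831, limma adjusted p = 0.0107), 43.4% higher in raw level. *Cdc45* (Entrez 12544, chr16:18780447-18811972), which joins the ring to form the active helicase, stood at 3.03 and 3.00 FPKM in Ctrl and 4.10 and 3.83 FPKM in cKO, or 3.02 ± 0.0212 in Ctrl and 3.97 ± 0.191 FPKM in cKO (SD, n = 2 libraries each). Its log2 fold change of 0.31 (SE 0.0885) was the closest to the threshold of the 4, with a limma adjusted p of 0.0429, and the call was lost when any of the 4 libraries was left out (adjusted p 0.0702 to 0.193). Its exons share 52 bases with *Ufd1* on the other strand, and the kit did not keep the strand.

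The other 4 MCM subunits did not pass. From here on, brackets give the log2 fold change, then its SE or its 95% interval before adjustment where shown, then the adjusted p. *Mcm6* stood at 6.79 and 6.84 FPKM in Ctrl and 7.64 and 8.88 FPKM in cKO, with a log2 fold change of 0.24 and a 95% interval of 0.04 to 0.45 (limma adjusted p = 0.0835). *Mcm4* stood at 5.32 and 4.95 FPKM in Ctrl and 6.07 and 6.25 FPKM in cKO, 0.22 with an interval of 0.04 to 0.41 (limma adjusted p = 0.0801). For both, the cKO libraries lay above the Ctrl libraries, and the intervals before adjustment did not reach 0. *Mcm3* stood at 6.14 and 5.96 FPKM in Ctrl and 6.40 and 8.31 FPKM in cKO, with cKO replicate 2 well above the other 3 libraries and a log2 fold change of 0.24 (-0.03 to 0.50, limma adjusted p = 0.177). *Mcm7*, the most abundant subunit, stood at 10.2 and 11.3 FPKM in Ctrl and 10.9 and 12.2 FPKM in cKO, and its genotypes overlapped (0.10, -0.10 to 0.29, limma adjusted p = 0.441). The exons of *Mcm7* share 247 bases with *Ap4m1* and 64 with *Cops6* on the other strand. *Cdc6*, which loads the ring at origins, lay under the filter at 0.56 and 0.67 against 0.68 and 0.53 FPKM and was the single member with the lower mean in cKO.

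The 6 subunits, which form a ring with a copy of each, were less unequal in cKO. In Ctrl their FPKM, a level per length, ran in the order *Mcm7*, *Mcm6*, *Mcm3*, *Mcm4*, *Mcm5* and *Mcm2*, with no overlap between neighbours. In cKO the same ends held, but the libraries of *Mcm6* and *Mcm3* overlapped, as did those of *Mcm4* and *Mcm5*. The level of *Mcm7* was 2.95 and 3.12 times that of *Mcm2* in Ctrl and 2.19 and 2.36 times in cKO. The ratio of *Mcm5* to *Mcm7* was 0.362 and 0.340 in Ctrl and 0.505 and 0.515 in cKO. These ratios were chosen after the values were seen and are given with no test.

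The 4 genes of nucleotide synthesis gave 0 calls by limma. Of them 3 had an unadjusted p under 0.05 in the upward direction, where 18.3% of all genes tested did. *Rrm1*, the large subunit of the reductase that makes deoxynucleotides, stood at 6.08 and 7.24 FPKM in Ctrl and 8.12 and 8.67 FPKM in cKO (0.30, 0.08 to 0.52, limma adjusted p = 0.0561), and *Rrm2*, its S-phase subunit, at 2.02 and 2.65 FPKM in Ctrl and 3.45 and 3.18 FPKM in cKO (0.38, 0.10 to 0.66, limma adjusted p = 0.0572). *Tk1*, which salvages thymidine and shares 83 exon bases with *Afmid* on the other strand, stood at 2.39 and 2.55 FPKM in Ctrl and 3.08 and 3.91 FPKM in cKO (0.37, 0.09 to 0.64, limma adjusted p = 0.0571). These 3 genes were separated by genotype, had intervals above 0 before adjustment, and missed the threshold by little. *Tyms*, the thymidylate synthase, stood at 4.14 and 4.62 FPKM in Ctrl and 4.25 and 4.67 FPKM in cKO, with overlapping genotypes and a difference of 0.02 (-0.20 to 0.24, limma adjusted p = 0.886). The intervals of *Rrm2* and *Tyms* overlap, and the difference between the genes' responses was not tested. The 4 genes summed to 14.6 and 17.1 FPKM in Ctrl and 18.9 and 20.4 FPKM in cKO.

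**Figure D2:**
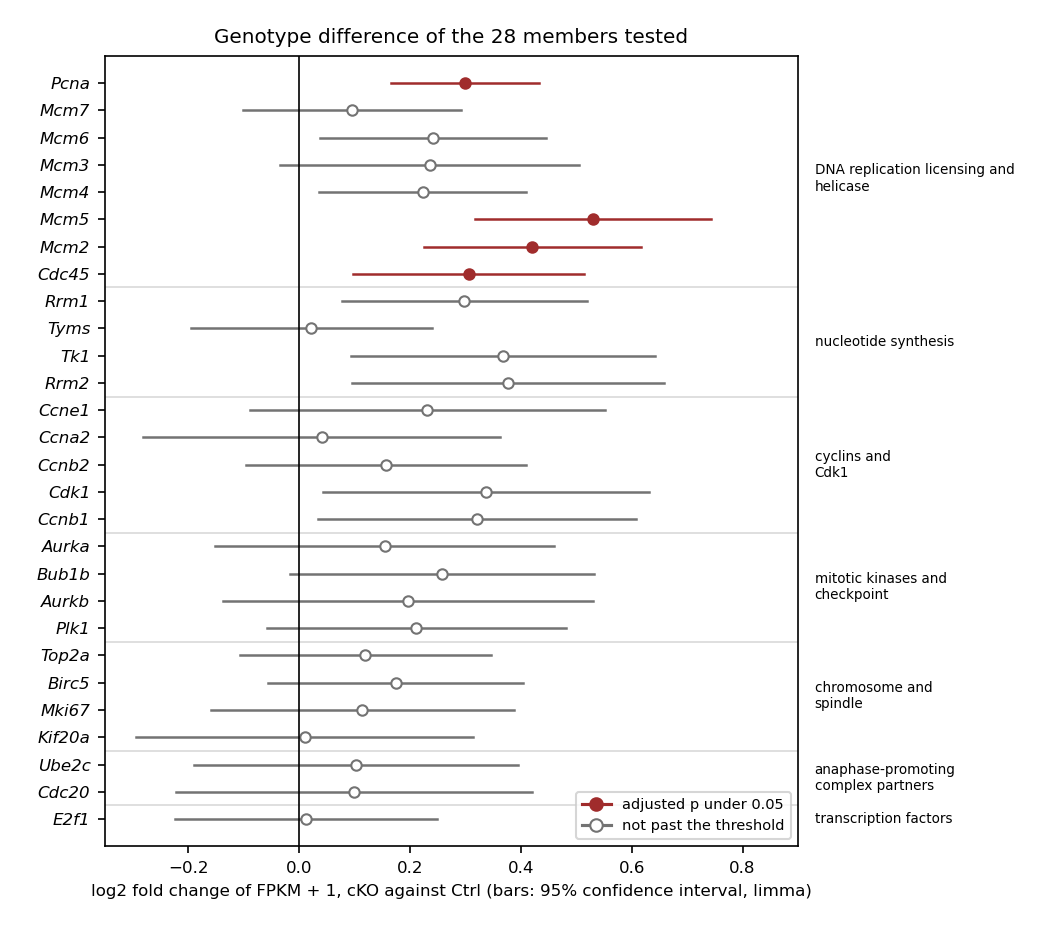
log2 fold change of each tested member, cKO against Ctrl on log2(FPKM + 1), with its 95% interval from limma. All 28 points lie to the right of 0, and the 4 that passed (*Mcm5*, *Mcm2*, *Cdc45* and *Pcna*) all belong to the replication group.

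Of the 6 genes for cyclins and *Cdk1*, 5 were tested and 0 passed. By limma 2 of the 5 had an unadjusted p under 0.05 in the upward direction, where 18.3% of all genes tested did. *Cdk1*, the kinase of mitotic entry, stood at 1.11 and 0.92 FPKM in Ctrl and 1.42 and 1.67 FPKM in cKO, 52.2% higher in raw level, with a log2 fold change of 0.34 (0.04 to 0.63, limma adjusted p = 0.0907). *Ccnb1*, its cyclin partner, stood at 0.88 and 0.75 FPKM in Ctrl and 1.28 and 1.25 FPKM in cKO, 55.2% higher, with 0.32 (0.03 to 0.61, limma adjusted p = 0.0978). Both kept the genotypes apart. *Ccnb2*, the other B cyclin, stood at 1.51 and 1.65 FPKM in Ctrl and 1.83 and 1.92 FPKM in cKO (0.16, limma adjusted p = 0.327), also separated. *Ccne1* and *Ccna2*, the cyclins of S-phase entry and of S and G2, overlapped between genotypes, at 2.12 and 3.00 against 2.98 and 3.32 FPKM and 2.11 and 2.22 against 1.88 and 2.68 FPKM, Ctrl first (limma adjusted p = 0.257 and 0.854). In *Ccna2* cKO replicate 2 was the highest of the 4 libraries and cKO replicate 1 the lowest. *Ccne2*, the second E cyclin, lay under the filter at 1.07 and 0.58 against 1.14 and 0.74 FPKM and overlapped.

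The mitotic kinases and checkpoint genes were low, and of the 4 tested 0 passed limma's test, adjusted or not. *Plk1*, a kinase of mitotic entry and exit, stood at 1.29 and 1.37 FPKM in Ctrl and 1.58 and 1.82 FPKM in cKO (0.21, limma adjusted p = 0.22), and *Bub1b*, which holds the spindle checkpoint, at 1.32 and 1.62 FPKM in Ctrl and 1.88 and 2.02 FPKM in cKO (0.26, -0.02 to 0.53, limma adjusted p = 0.15). Both were separated by genotype. *Aurka*, the kinase of the spindle poles, and *Aurkb*, that of the chromosomal passenger complex, overlapped, at 1.89 and 1.66 against 2.40 and 1.80 FPKM and at 1.17 and 1.76 against 1.86 and 1.75 FPKM, Ctrl first (limma adjusted p = 0.425 and 0.351). *Bub1*, a second checkpoint kinase, lay under the filter at 0.19 and 0.26 against 0.25 and 0.44 FPKM. Its Ctrl replicate 1 rests on about 12 estimated reads, the fewest of any member and library, while *Pcna* reached 1456, and 13 of the 36 members had at least 100 in every library.

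Of the 7 chromosome and spindle genes 4 were tested and 0 passed limma's test, adjusted or not, including the markers most used to count dividing cells. *Mki67*, which encodes the Ki-67 protein of cycling nuclei, stood at 1.33 and 1.58 FPKM in Ctrl and 1.59 and 1.72 FPKM in cKO, with a log2 fold change of 0.11 (-0.16 to 0.39, limma adjusted p = 0.51). *Top2a*, the topoisomerase that untangles chromosomes, stood at 2.34 and 2.49 FPKM in Ctrl and 2.76 and 2.66 FPKM in cKO (0.12, -0.11 to 0.35, limma adjusted p = 0.401). *Birc5*, which encodes survivin of the passenger complex, stood at 2.40 and 2.29 FPKM in Ctrl and 2.66 and 2.89 FPKM in cKO (0.17, -0.06 to 0.40, limma adjusted p = 0.236). In these 3 both cKO libraries lay above both Ctrl libraries, although in *Mki67* the nearest libraries of the genotypes, at 1.58 and 1.59 FPKM, all but touched. *Kif20a*, a kinesin of cell division whose exons share 977 bases with *Cdc23* on the other strand, overlapped at 1.25 and 0.96 against 1.15 and 1.08 FPKM (0.01, -0.29 to 0.31, limma adjusted p = 0.963). Under the filter, the spindle motor *Kif11* was separated at 0.76 and 0.91 against 1.05 and 1.24 FPKM and the centromere motor *Cenpe* at 0.19 and 0.30 against 0.41 and 0.41 FPKM, Ctrl first, while *Cenpf*, a kinetochore protein, overlapped at 0.20 and 0.25 against 0.21 and 0.27 FPKM.

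The 2 partners of the anaphase-promoting complex and the 3 transcription factors had the smallest changes in summed level of the role groups. *Ube2c*, the complex's ubiquitin-conjugating enzyme, stood at 4.96 and 6.68 FPKM in Ctrl and 6.45 and 6.08 FPKM in cKO and overlapped (0.10, -0.19 to 0.39, limma adjusted p = 0.586). Its exons share 144 bases with the muscle gene *Tnnc2* on the other strand, which was listed at 300.4 and 207 FPKM in Ctrl and 1.03 and 0.68 FPKM in cKO, and the part of this in the value of *Ube2c* was not tested. *Cdc20*, which activates the complex, stood at 1.63 and 1.85 FPKM in Ctrl and 1.63 and 2.27 FPKM in cKO and overlapped (limma adjusted p = 0.634). *E2f1*, a factor that switches on S-phase genes, stood at 4.25 and 3.59 FPKM in Ctrl and 4.10 and 3.81 FPKM in cKO, with overlapping genotypes and 0.01 (-0.22 to 0.25, limma adjusted p = 0.94). *Foxm1* and *Mybl2*, the factors of the mitotic genes, lay under the filter at 1 and 0.92 against 0.95 and 1.07 FPKM and 0.71 and 0.65 against 0.80 and 0.77 FPKM, and of the 3 factors *Mybl2* was the one with separated genotypes. Other members share exon bases with a gene on the other strand too, *Ccna2* 299 with *Exosc9*, *Ccne2* 201 with *Ints8*, *Plk1* 156 with *Gm44985* and *Cdc20* 53 with *Elovl1*, and *Foxm1* shares 144 with *Tex52* and 97 with *Gm44596* on its own strand.

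By role, the summed level was higher in cKO by 23.4% for the replication group, 24.1% for nucleotide synthesis, 23.4% for the cyclins and *Cdk1*, 26.1% for the mitotic kinases and checkpoint genes and 16.5% for the chromosome and spindle genes. It was 8.66% higher for the anaphase-promoting complex partners and 3.42% for the transcription factors, and in these 2 groups the libraries of the genotypes overlapped. The median log2 fold change of tested members was 0.27 in the replication group (8 genes), 0.33 in nucleotide synthesis (4), 0.23 in the cyclins and *Cdk1* (5), 0.20 in the mitotic kinases and checkpoint genes (4) and 0.12 in the chromosome and spindle genes (4). The calls thus lay in the group with the highest median level, 5.65 FPKM, while the change in the sum lay between 23.4% and 26.1% in the first 4 groups. Whether the groups' responses differ was not tested.

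**Figure D3:**
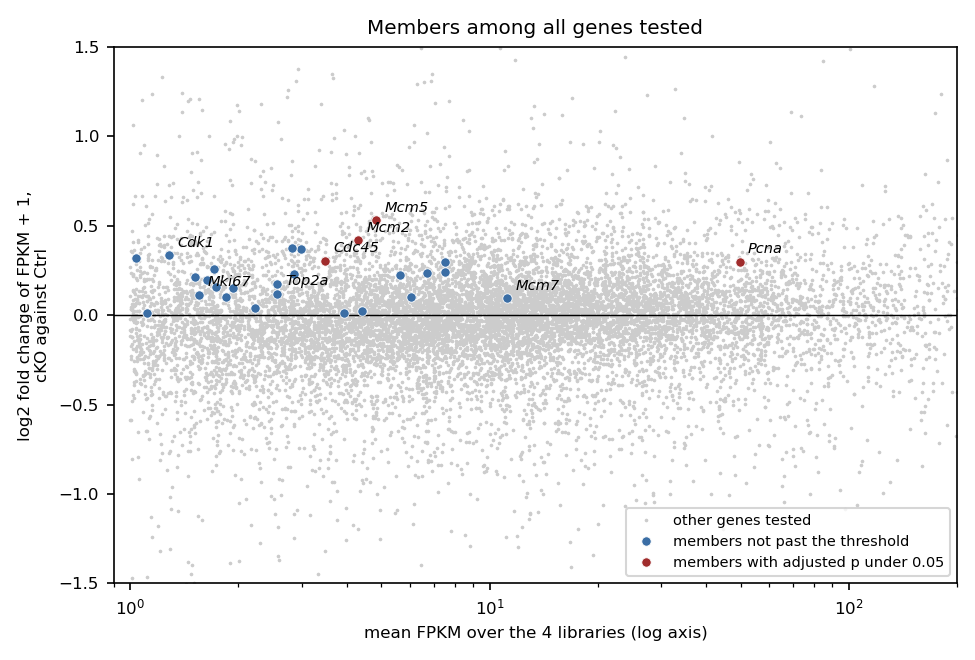
log2 fold change of FPKM + 1, cKO against Ctrl, against mean FPKM (log axis) for the genes tested (grey), with the 28 tested members in blue and the 4 of them that passed in red; 489 of the 12658 genes lie outside the axis limits. The members all lie above 0 and inside the cloud of other genes, with *Mcm5* the highest at 0.53.

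Promoter sequence was compared because the members share known regulators. RefSeq promoter windows of mouse assembly GRCm38.p6 were found for 30 of the 36, each from 250 bases before to 30 after the start site. In 20 of the 31 windows of these genes, the bases just after the start site were found near the start of an annotated transcript. The *Mcm5* window was not among these 20. On either strand, an E2F word (TTTGGCGC, TTTGCCGC, TTTCGCGC or TTTCCCGC) stood in the windows of 6 of the 30, where 2.12% of 32851 promoter windows hold one. A CHR word (TTTGAA or TTCGAA), the element bound by MuvB, stood in 13 of the 30, against 18.4% of windows, and the CCAAT box in 23 of the 30, against 36.1%. A match to these letters is a description and no bound site. Tested members with an E2F word had a median log2 fold change of 0.24 (5 genes) and those without 0.21 (19 genes), those with a CHR word 0.14 (10) and those without 0.24 (14), and those with CCAAT 0.24 (19) and those without 0.17 (5). The widest gap was that for the CHR word, with the lower median in members that held it, and neither the shares nor the medians were tested.

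The windows of the 4 genes that rose are printed below with those of *Cdk1* and *Ccnb1*, which had the largest raw change of the tested members that did not pass, 5′ to 3′ on the gene's strand, with the E2F, CHR and CCAAT words of either strand in capitals. They lie at chr8:75109259-75109497 (plus strand, GRCm38.p6), chr6:88898751-88899030 (minus), chr2:132253151-132253430 (minus), chr16:18811943-18812222 (minus), chr10:69352883-69353162 (minus) and chr13:100786457-100786736 (minus). The *Mcm5* window stops short because a transcript of the gene starts 41 bases further upstream.
Mcm5: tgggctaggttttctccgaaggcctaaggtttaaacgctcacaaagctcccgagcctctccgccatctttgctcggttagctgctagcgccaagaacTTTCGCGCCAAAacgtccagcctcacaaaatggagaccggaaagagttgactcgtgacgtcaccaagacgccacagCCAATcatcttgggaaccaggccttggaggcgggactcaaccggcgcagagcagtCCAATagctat
Mcm2: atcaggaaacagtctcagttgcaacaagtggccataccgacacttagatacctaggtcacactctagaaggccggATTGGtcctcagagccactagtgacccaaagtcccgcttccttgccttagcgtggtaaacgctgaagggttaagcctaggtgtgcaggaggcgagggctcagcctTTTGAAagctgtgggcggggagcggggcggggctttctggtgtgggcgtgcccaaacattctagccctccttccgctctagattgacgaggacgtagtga
Pcna: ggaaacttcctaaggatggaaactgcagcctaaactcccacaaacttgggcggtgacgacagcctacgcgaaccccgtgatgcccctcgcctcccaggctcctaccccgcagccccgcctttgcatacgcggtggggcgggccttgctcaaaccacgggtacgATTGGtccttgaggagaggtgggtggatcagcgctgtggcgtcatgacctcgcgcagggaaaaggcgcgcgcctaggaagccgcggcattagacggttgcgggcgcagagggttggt
Cdc45: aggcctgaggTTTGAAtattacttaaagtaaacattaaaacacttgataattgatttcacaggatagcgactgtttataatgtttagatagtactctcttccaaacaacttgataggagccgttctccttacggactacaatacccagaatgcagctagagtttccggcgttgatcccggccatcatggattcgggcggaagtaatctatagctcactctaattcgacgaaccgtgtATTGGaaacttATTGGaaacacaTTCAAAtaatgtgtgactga
Cdk1: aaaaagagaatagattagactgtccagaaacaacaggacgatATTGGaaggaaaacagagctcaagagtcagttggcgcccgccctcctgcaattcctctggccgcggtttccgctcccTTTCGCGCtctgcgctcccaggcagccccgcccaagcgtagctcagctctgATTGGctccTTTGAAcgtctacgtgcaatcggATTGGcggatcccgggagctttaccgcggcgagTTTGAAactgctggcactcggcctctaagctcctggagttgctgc
Ccnb1: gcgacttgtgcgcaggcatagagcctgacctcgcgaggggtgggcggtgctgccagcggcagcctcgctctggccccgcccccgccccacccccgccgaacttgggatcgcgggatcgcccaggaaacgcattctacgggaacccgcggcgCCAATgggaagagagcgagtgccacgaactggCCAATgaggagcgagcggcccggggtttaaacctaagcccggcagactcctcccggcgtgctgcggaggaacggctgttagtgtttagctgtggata

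*Mcm5*, with the largest fold change, was the single gene of the 4 that rose to hold an E2F word, a pair of overlapping words on opposite strands whose first base lay 153 bases before the start site of the promoter table, which is 41 bases downstream of the gene's most upstream start, with CCAAT boxes at 77 and 22 bases before it and another 6 bases after it, past the stretch printed. *Mcm2* held a CHR word 70 bases before the start and a CCAAT box at 175, and *Pcna* a CCAAT box at 87 as its only word of the 3 kinds. In *Cdc45* a CHR word lay 240 bases before the start and another 10 bases after it, and CCAAT boxes lay 13 and 2 bases before it. *Cdk1* held the fullest set of the 6, an E2F word at 131 bases, CHR words at 71 and 15, and CCAAT boxes at 208, 80 and 48, while *Ccnb1* held CCAAT boxes at 99 and 67 and no E2F or CHR word in this window.

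A wider set of 165 other cell cycle genes, in 5 lists, was read beside the members. Of its 111 tested genes 18 rose (16.2%) and 4 fell, beside 12.0% and 13.8% of all genes tested, and the median difference was 0.06 on the log2 scale. The count of 18 fell when any 1 library was left out, as did the count of all genes called higher. In the replication list of 52 genes, 42 were tested, 9 rose (21.4%) and 1 fell. *Gmnn*, which encodes geminin, the inhibitor of licensing that builds up in S and G2, stood at 4.79 and 5.41 FPKM in Ctrl and 10.7 and 9.89 FPKM in cKO (0.89, SE 0.085, limma adjusted p = 0.000815). *Cdt1*, the loading factor that geminin holds, stood at 3.20 and 2.67 FPKM in Ctrl and 5.69 and 5.94 FPKM in cKO (0.80, SE 0.0975, limma adjusted p = 0.0018). Their raw levels were 102% and 98.1% higher in cKO, a larger change than in any of the 36 members. *Pold1*, the catalytic subunit of DNA polymerase delta that PCNA holds, was at 5.43 and 4.99 against 7.49 and 7.48 FPKM and *Uhrf1*, which keeps DNA methylation through replication, at 2.05 and 1.80 against 2.83 and 3.10 FPKM, Ctrl first (0.45 and 0.44, limma adjusted p = 0.00653 and 0.0215). The other 5 rises, named after their values were seen, *Fen1*, *Dck*, *Dnmt1*, *Slbp* and *Rfc2*, had log2 fold changes from 0.24 to 0.42. The fall was *Orc6*, of the origin recognition complex, at 12.1 and 12.2 FPKM in Ctrl and 9.85 and 10.6 FPKM in cKO (-0.23, limma adjusted p = 0.0488).

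In the mitosis list of 72 genes, 32 were tested and 4 rose (12.5%, beside 12.0% of all genes tested) and 0 fell. The log2 fold change was above 0 in 29 of the 32 (median 0.15), beside 48.8% of all genes, and *Ccnf* and *Tpx2* among them passed the filter only through their cKO libraries. *Cks2*, a small partner of CDK1, stood at 3.20 and 4.44 FPKM in Ctrl and 6.63 and 7.34 FPKM in cKO (0.74, limma adjusted p = 0.00701). *Cenpa*, the histone of centromeres, stood at 3.69 and 4.29 FPKM in Ctrl and 6.66 and 6.02 FPKM in cKO (0.56, limma adjusted p = 0.00648). The other two were *Cdca3*, a trigger of mitotic entry, at 1.90 and 2.01 against 3.32 and 2.70 FPKM, and *Smc4*, of condensin, at 11.1 and 11.9 against 13.3 and 16.0 FPKM, Ctrl first (0.44 and 0.32, limma adjusted p = 0.0294 and 0.0444). Of the 72 genes, tested or not, 38 had both cKO libraries above both Ctrl libraries, where 26.1% of the genes listed did, and 2 had both below. Of the 32 tested, 19 had both above, where 31.9% of all genes tested did.

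Most genes that start and restrain the cycle did not pass the test. Of 20 tested genes of G1 and cell cycle entry 3 rose and 1 fell, beside 12.0% and 13.8% of all genes. *Cdc25a*, a phosphatase that frees CDK2, rose (2.59 and 3.07 against 3.90 and 4.38 FPKM), as did *Ccnd1* (13.4 and 13.8 against 16.1 and 16.4 FPKM) and *E2f4* (23.8 and 23.2 against 27.3 and 27.5 FPKM), with log2 fold changes of 0.43, 0.24 and 0.22 (limma adjusted p = 0.0247, 0.0284 and 0.0312). *Ccnd2*, another D cyclin, fell, from 43.4 and 43.6 to 25.9 and 30.1 FPKM (-0.62, limma adjusted p = 0.00192). Of 11 tested inhibitors 2 fell and 1 rose, beside 13.8% and 12.0% of all genes. *Cdkn2c*, which encodes the CDK4 and CDK6 inhibitor p18, stood at 125 and 122 FPKM in Ctrl and 76.2 and 82.2 FPKM in cKO (-0.63, limma adjusted p = 0.000821), and *Cdkn1c*, which encodes p57, at 10.5 and 9.51 FPKM in Ctrl and 5.91 and 6.08 FPKM in cKO (-0.65, limma adjusted p = 0.00161). *Btg2*, an antiproliferative gene induced by stress signals, rose from 19.8 and 19.9 to 22.5 and 24.8 FPKM (0.24, limma adjusted p = 0.0401). In these 3 genes the genotypes did not overlap. The exons of *Cdkn1c* share 422 bases with *Gm44732* and those of *Ccnd2* 372 with *Gm43126*, both on the other strand. Among 6 tested genes of the list named for the DREAM and MuvB complexes, which also holds the forkhead gene *Foxn3*, 1 rose (16.7%, beside 12.0% of all genes). This was *Lin37*, at 12.2 and 11.1 against 15.2 and 14.3 FPKM (0.32, limma adjusted p = 0.0201).

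**Figure D4:**
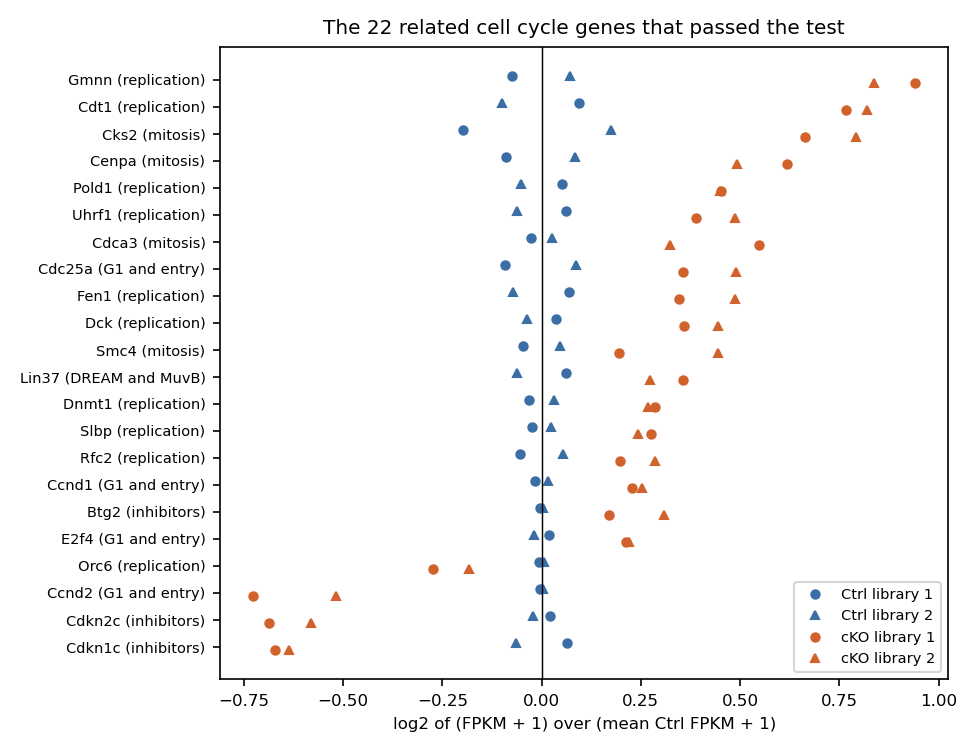
log2 of (FPKM + 1) over (mean Ctrl FPKM + 1) in each library for the 22 related cell cycle genes that passed the test, with their list in brackets (Ctrl blue, cKO orange; circle replicate 1, triangle replicate 2). *Gmnn*, *Cdt1* and *Cks2* lie farthest to the right in cKO, and *Orc6*, *Ccnd2*, *Cdkn2c* and *Cdkn1c* lie to the left of 0.

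Markers of other cell types moved with genotype beside the proliferation genes. Their counts stand beside 12.0% of all genes tested called higher in cKO and 13.8% called lower. Of 8 B cell markers 7 rose and 0 fell, and their sum was 240.5 and 273 FPKM in Ctrl and 373 and 423 FPKM in cKO. Of 8 T cell markers 6 rose and 0 fell, with a sum of 100.4 and 106 FPKM in Ctrl and 139 and 183 FPKM in cKO. The lymphocyte sums were thus 54.8% and 56.0% higher in cKO, beside 21.5% for the 36 members. Of 10 neutrophil and myeloid precursor markers 4 were tested and rose (*S100a8*, *S100a9*, *Csf3r* and *Retnlg*, genes of mature neutrophils), of which *Retnlg* passed the filter only through its cKO libraries. The list had a sum of 11.76 and 12.5 FPKM in Ctrl and 28.04 and 27.02 FPKM in cKO. The precursor genes *Elane* and *Camp* overlapped between genotypes under the filter, at 0.61 and 0.94 against 0.97 and 0.77 FPKM and 0.77 and 0.49 against 0.41 and 0.81 FPKM, Ctrl first, and *Ly6g* and *Mpo* were listed at 0 in 2 libraries each. *Ngp* and *Ltf* of the same list, also under the filter, had both cKO libraries above both Ctrl libraries. They stood at 0.38 and 0.63 against 0.70 and 1.49 FPKM and at 0.12 and 0.12 against 0.21 and 0.25 FPKM, Ctrl first. Of 6 germinal centre markers, which mark a site where B cells divide, 2 were tested and *Bcl6* rose, at 11.0 and 13.7 FPKM in Ctrl and 39.6 and 31.1 FPKM in cKO, while *S1pr2* did not pass, at 4.84 and 4.82 FPKM in Ctrl and 4.89 and 4.25 FPKM in cKO. Of 5 tested plasma cell markers 1 rose (*Mzb1*) and 2 fell (*Xbp1* and *Jchain*), with a sum of 146 and 144 FPKM in Ctrl and 98.1 and 123 FPKM in cKO. Most of this sum was *Xbp1*, at 107 and 101 FPKM in Ctrl and 65.3 and 79.75 FPKM in cKO.

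Markers of the other cell types went in either direction, again beside 12.0% of all genes tested called higher in cKO and 13.8% called lower. Of 9 fibroblast progenitor markers 7 fell and 0 rose, with a sum of 1722 and 1480.4 FPKM in Ctrl and 999 and 1005 FPKM in cKO, 4 of 8 endothelial markers fell and 0 rose, with 272 and 266 FPKM in Ctrl and 230.5 and 241 FPKM in cKO, and 5 of 10 macrophage markers fell and 1 rose, with 1355 and 1173 FPKM in Ctrl and 1203 and 1217 FPKM in cKO. Of 6 tested erythroid markers 2 fell and 0 rose, with a sum of 3013 and 2856 FPKM in Ctrl and 2418 and 2596 FPKM in cKO. Of 7 white adipocyte markers 4 fell and 0 rose, with a sum of 22502 and 22784 FPKM in Ctrl and 18199 and 18601 FPKM in cKO, and all 7 brown adipocyte markers rose, with 1516 and 1792 FPKM in Ctrl and 4778 and 4038 FPKM in cKO. Markers of skin and of mammary epithelium, which can be cut out with this depot, summed to no more than 4.46 and 2.19 FPKM in any library. The lists whose sums were higher in cKO were thus the B cell, T cell, germinal centre, neutrophil and brown adipocyte lists, and their part in the members' values was not tested. The germinal centre sum, 16.9 and 19.9 FPKM in Ctrl and 45.9 and 37.2 FPKM in cKO, was mostly *Bcl6*. That gene alone stood at 11.0 and 13.7 FPKM in Ctrl and 39.6 and 31.1 FPKM in cKO. In 3 of the 6 germinal centre genes the genotypes overlapped.

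**Figure D5:**
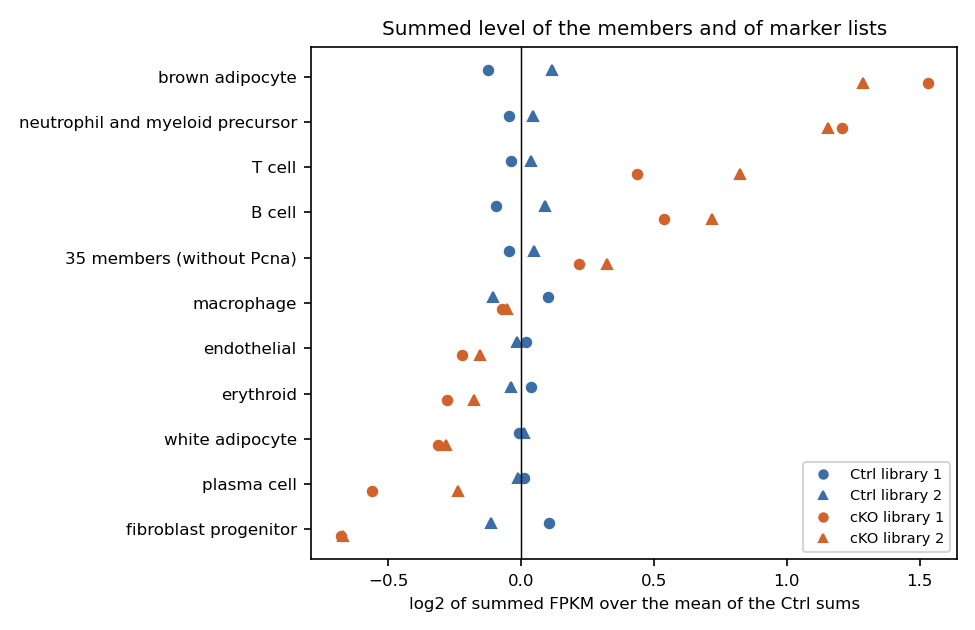
log2 of the summed FPKM of each list over the mean of its Ctrl sums, in each library (Ctrl blue, cKO orange), for 35 members (without *Pcna*) and the cell type marker lists, the skeletal muscle, skin, mammary and germinal centre lists left out. In cKO the members lie to the right of 0 but under the B cell, T cell, neutrophil and brown adipocyte sums, while the white adipocyte and fibroblast progenitor sums lie to the left.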

How the data were processed

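The 4 libraries (2 Ctrl, 2 cKO) were made by the authors from polyadenylated RNA of ingWAT with a kit that did not keep the strand and single-end reads. The submitters' processing notes name HISAT2 2.0.4, RSEM 1.2.12 and mm10. The deposited values are FPKM per gene; depth was estimated here from the value steps among 295 short RNA genes; of the 133 to 147 values used per library, 82.7% to 86.1% came out whole within 0.1, and estimated reads cover counting error only. Other genes gave no whole reads, so no count test was run. The members and lists were chosen with earlier results of these data known.

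Genes with a mean of at least 1 FPKM over the 4 libraries were tested with limma 3.58.1 (R 4.3.3) on log2(FPKM + 1) with a trended prior, two-sided, and Benjamini-Hochberg adjustment over all 12658. Named genes were all 36 members, *Slc22a3*, and, of the related lists, the 4 largest rises and falls that passed with genotypes separated, and all called inhibitors; other named genes (marker and overlapping genes, and the remaining replication rises) were chosen after their values were seen. Alternatives were other pseudocounts, filters, scalings, no trend, a replicate block and leaving out each library. Exon overlaps came from GENCODE M21, and promoters from RefSeq. Scripts were tested on simulated data.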

Additional observations from a re-analysis of the deposited data

How the results depend on the processing

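The 4 members that rose became 2 with a mean of at least 5 FPKM required (*Pcna* and *Rrm1*, since that filter removed the other 3 and left 7 members tested), 10 after quantile normalization and 0 when an absolute log2 fold change of at least 1 was also asked for, and ranged from 0 to 6 when 1 library was left out. The 18 related cell cycle genes that rose became 5 with no filter and 0 with the fold threshold, and 2 to 11 with 1 library left out; the 4 that fell became 0 with the fold threshold. Over all genes, 1519 rose and 1750 fell, which became 667 and 1095 with no filter and 81 and 152 with the fold threshold, and 303 to 1072 and 484 to 1379 with 1 library left out. With no filter 19030 genes were tested, and the lone library of a group is assumed to vary like the other group; otherwise the cause was not tested.

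Of 315 recomputed values of single members, 278 kept direction and side of the threshold, 16 passed it only under the alternative, 12 lost it and 9 changed sign. With 1 library left out, the 6 members that changed sign ranged from -0.14 to 0.22 (*Ccna2*), -0.058 to 0.26 (*Cdc20*), -0.089 to 0.11 (*Kif20a*), -0.043 to 0.086 (*Tyms*), -0.081 to 0.29 (*Ube2c*) and -0.084 to 0.11 (*E2f1*) on the log2 scale, and none of them was called. *Rrm1* and *Tk1* passed after median-of-ratios scaling, and *Ccnb1* and *Cdk1* passed without the trended prior. With replicate number as a block, 6 members rose, adding *Rrm1* (limma adjusted p = 0.029) and *Tk1* (0.0384), and 3383 genes were called; the deviations of same-numbered libraries correlated at 0.0148 across genes, so the numbers were not read as pairs. Scaling moved the median of all genes by less than 0.1 on the log2 scale. The lowest member rests on 12 estimated reads in a library, and the part of depth in the missing calls was not tested.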
